A study of Mus musculus with 9 samples.

Results

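The genes described here encode the nuclear subunits of mitochondrial complex I and the assembly factors that share their Nduf name. The rule goes by name: a gene was included if its symbol begins with Nduf and the annotated table of the authors lists it as protein coding. This gave 47 genes of 55011 in the count table, and the rule itself uses no measured value, although the set was proposed with earlier results of these data known. A further 6 genes with Nduf names are processed pseudogenes and were left out. Of the 47 genes, 46 had enough counts to be tested. Ndufa4l2 did not, with at most 2 counts in any library.

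RNA was measured in CD8 T cells from the spleen of wild-type mice, in 9 libraries. Naive cells of all 3 groups were activated for 6 h on plates coated with antibodies to CD3 and CD28 (4 µg/mL), so that the controls were activated as well. The control group was left untreated, and the other groups were given D-2HG at 20 mM or L-2HG at 20 mM together with the stimulus, with n = 3 libraries each. The compounds are enantiomers of 2-hydroxyglutarate, that is, mirror images, and the D form is the oncometabolite made by tumours with mutant isocitrate dehydrogenase. The labels do not say whether the 3 libraries of a group came from separate mice or cultures. The p-values therefore rest on the spread among these libraries, part of which may be technical.

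Complex I is the entry enzyme of the respiratory chain. It takes electrons from NADH through a flavin and a chain of iron-sulfur clusters in its peripheral arm, passes them to ubiquinone, and pumps protons through its membrane arm. Its core subunits carry the cofactors or pump protons, its accessory subunits surround and stabilise the core, and assembly factors help to build it without staying in the finished enzyme. The core of the peripheral arm and all accessory subunits are nuclear genes, whereas the proton-pumping core is encoded by mitochondrial DNA. Activated T cells raise mitochondrial respiration as they leave the resting state.

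The name does not fix the role in every case. Ndufa4 was once counted as a complex I subunit and is now placed in complex IV, and Ndufa4l2 is its paralog. Ndufab1 is also the mitochondrial acyl carrier protein. Ndufb1-ps is protein coding in the table of the authors but a noncoding transcript in the GENCODE M21 annotation, and Ndufs3 carries 2 identifiers in that table. The members were grouped into 7 nuclear core subunits, 10 accessory subunits of the peripheral arm, 20 accessory subunits of the membrane arm, 8 assembly factors and the 2 genes outside the complex.

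Promoter sequences are shown first because some members share short letters around their start sites. A promoter, here 250 bases before to 50 bases after the start site in RefSeq (build GRCm38.p6), was matched for 41 of the 47 members, with Ndufb1-ps matched under the symbol Ndufb1. Both strands were searched for the core letters known for YY1 (AAGATGGC), NRF1 (CGCATGCG) and ETS factors such as GABPA (CCGGAAG), transcription factors associated with nuclear genes of the respiratory chain. The YY1 core was present in 8 of 41 member promoters (19.5%), against 6.24% of the 7726 tested genes with a promoter and 3.19% of all 27025 promoters in the table. In all 8 members the core read in the sense direction, beginning 11 to 39 bases after the start site, an arrangement found in 3.00% of tested genes. The 22-base windows around it are printed below, with the core in capitals. The core holds the letters ATG, so a match can also be part of a translation start.
Ndufaf8: ggcagggcccAAGATGGCggcg
Ndufc1: cctgcggaacAAGATGGCgccg
Ndufa3: cgccaagaacAAGATGGCcggg
Ndufs7: ggccgaggccAAGATGGCggcg
Ndufa9: attgtgggagAAGATGGCggcc
Ndufs6: ggtcaccggcAAGATGGCggcg
Ndufs4: tgcctacaggAAGATGGCggcg
Ndufb8: ggagaaggtgAAGATGGCtgcc

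The NRF1 core was present in 4 of 41 member promoters (9.76%), against 4.96% of tested genes and 2.07% of all promoters. Its windows are printed with the core in capitals, at 9, 59 and 112 bases before the start for Ndufa8, Ndufa11 and Ndufaf4, and from base 18 after it for Ndufaf5.
Ndufa8: tcgctggagaCGCATGCGcaga
Ndufa11: ctgcactgcgCGCATGCGcgca
Ndufaf4: cagatgtctgCGCATGCGcctg
Ndufaf5: gtcccgttggCGCATGCGccta

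The ETS core was present in 6 of 41 member promoters (14.6%), fewer in proportion than the 23.7% of tested genes. Of the 41 members, Ndufaf8 alone held 2 of the 3 cores. Its promoter from 100 bases before the start to 20 bases after it (GRCm38.p6, chr11:120098834-120098953, plus strand) has the ETS and the YY1 core in capitals. It is printed because Ndufaf8 had the largest decrease with D-2HG among the members.
Ndufaf8: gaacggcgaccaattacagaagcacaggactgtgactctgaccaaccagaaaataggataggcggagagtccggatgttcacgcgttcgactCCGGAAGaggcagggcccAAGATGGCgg
A match is a description of the letters and not a bound site, and no binding was measured.

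With D-2HG, 29 of 46 tested members were lower than in the controls at an edgeR adjusted p under 0.05, and none was higher. Among all 10235 genes tested, 10.5% were lower and 11.8% higher. The log2 fold changes of the members ran from -1.11 (Ndufaf8) to -0.02 (Ndufs1) with a median of -0.74, beside a median of 0.04 over all tested genes, and all 46 were below 0. At an unadjusted edgeR p under 0.05, 40 members were lower, beside 3960 of all 10235 tested genes in either direction. With L-2HG, 11 of 46 members were lower and none was higher, where 8.38% of all tested genes were lower and 9.48% higher. The median over members was -0.64, from -1.12 (Ndufs8) to -0.08 (Ndufs1), beside 0.05 over all tested genes. Here 37 members were lower at an unadjusted p under 0.05, beside 3771 of all 10235 tested genes in either direction. No member was higher by DESeq2 or limma-voom with either compound. These are bulk samples, in which fewer cells of a type and less RNA per cell cannot be told apart. Both comparisons use the same 3 controls, so they are not independent of each other.

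A second count used the ranges of CPM, the read counts relative to the scaled total of the library. With D-2HG, 33 of 46 members had all 3 treated libraries below all 3 controls, as did 19.3% of all tested genes. With L-2HG this held for 15 of 46 members, and for 14.8% of all tested genes. Control replicate 2 was the lowest control for 43 of the 46 members, so it set the range of the controls in most cases.

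**Figure D1:**
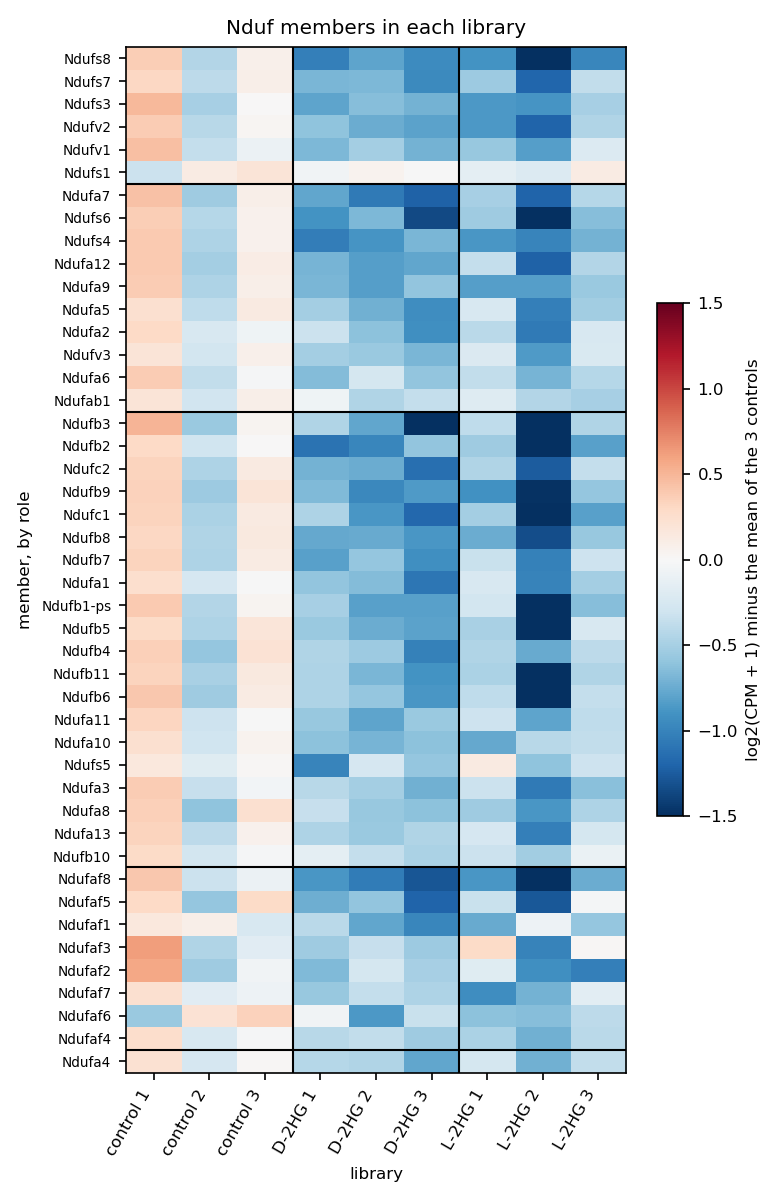
Each row is a tested member (1 is not drawn), ordered by role with lines between the roles (core, peripheral arm, membrane arm, assembly factors, Ndufa4), each column is a library, and colour gives log2(CPM + 1) minus the mean of the 3 controls, with values beyond 1.5 shown in the end colour. Control replicate 2 is blue in all rows but Ndufs1, Ndufaf1 and Ndufaf6, the D-2HG and L-2HG columns are blue for most, and L-2HG replicate 2 is the darkest column.

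Of the 7 nuclear core subunits, 6 fell with D-2HG and 3 fell with L-2HG. Ndufs8, an iron-sulfur subunit next to the ubiquinone site (GRCm38, chr19:3908863-3912774, minus strand), had 275, 157 and 225 CPM in control replicates 1 to 3, 105, 123 and 111 CPM with D-2HG, and 114, 71.8 and 108 CPM with L-2HG. All 6 treated libraries lay below the lowest control. Its log2 fold change was -0.96 ± 0.22 (SE) with D-2HG (edgeR adjusted p = 0.00858) and -1.12 ± 0.23 with L-2HG (edgeR adjusted p = 0.00852). Ndufs7, the subunit with the last iron-sulfur cluster before ubiquinone (chr10:80249121-80256794, plus strand), had 216, 133 and 185 CPM in the controls, 108, 109 and 89.7 under D-2HG, and 119, 75.7 and 135 under L-2HG. The D-2HG libraries lay below the controls and the L-2HG libraries overlapped them. The change was -0.80 ± 0.22 with D-2HG (edgeR adjusted p = 0.0199) and -0.66 ± 0.23 with L-2HG (edgeR adjusted p = 0.0515).

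Ndufs3, a core subunit of the peripheral arm (chr2:90894634-90904827, minus strand), had 178, 89.6 and 127 CPM in the controls, 72.8, 80.9 and 77.3 under D-2HG, and 69.4, 68.0 and 89.4 under L-2HG. All treated libraries were below the controls, with L-2HG replicate 3 just under control replicate 2. Ndufs3 fell with both compounds, by -0.78 ± 0.23 with D-2HG (edgeR adjusted p = 0.0235) and -0.79 ± 0.24 with L-2HG (edgeR adjusted p = 0.0314).

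Ndufv1 and Ndufv2 form the tip of the peripheral arm where NADH is oxidised, and Ndufv1 holds the flavin. Ndufv1 (chr19:4007384-4012806, minus strand) had 202, 116 and 139 CPM in the controls, 92.4, 104 and 90.6 under D-2HG, and 99.3, 83.5 and 129 under L-2HG. Only the D-2HG libraries were all below the controls. Its change was -0.68 ± 0.22 with D-2HG (edgeR adjusted p = 0.0367) and -0.53 ± 0.23 with L-2HG (edgeR adjusted p = 0.0972). Ndufv2 (chr17:66078638-66101559, minus strand) had 350, 202 and 275 CPM in the controls, 177, 160 and 154 under D-2HG, and 148, 117 and 197 under L-2HG. All 6 treated libraries were below the controls. Ndufv2 fell by -0.76 ± 0.22 with D-2HG (edgeR adjusted p = 0.0232) and by -0.82 ± 0.23 with L-2HG (edgeR adjusted p = 0.0231).

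Ndufs1, the largest core subunit and a carrier of several iron-sulfur clusters (chr1:63143596-63176833, minus strand), stood apart from the other core subunits. It had 122, 167 and 175 CPM in the controls, 148, 159 and 152 under D-2HG, and 138, 132 and 167 under L-2HG. The groups overlapped, and control replicate 1 was the lowest of the 9 libraries. Its log2 fold change was -0.02 ± 0.19 with D-2HG (edgeR adjusted p = 0.960) and -0.08 ± 0.20 with L-2HG (edgeR adjusted p = 0.808). Its exons cover 8086 bases and its principal transcript 2661 bases, the longest of the core subunits.

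Of the 10 accessory subunits of the peripheral arm, 6 fell with D-2HG (Ndufa7, Ndufs4, Ndufs6, Ndufa9, Ndufa12 and Ndufa5) and 3 fell with L-2HG (Ndufs4, Ndufa9 and Ndufs6). Their median log2 fold changes were -0.75 and -0.60. Ndufa7 (chr17:33824572-33838317, plus strand) had 190, 96.3 and 148 CPM in the controls, 81.2, 66.5 and 59.5 under D-2HG, and 98.9, 60.2 and 103 under L-2HG. The D-2HG libraries lay below the controls, and the L-2HG libraries reached into their range. The change was -1.07 ± 0.25 with D-2HG (edgeR adjusted p = 0.00837) and -0.69 ± 0.25 with L-2HG (edgeR adjusted p = 0.0590). Ndufs4, whose loss in mice gives a model of Leigh syndrome (chr13:114287795-114388258, minus strand), had 164, 90.1 and 130 CPM in the controls, 60.2, 67.2 and 77.3 under D-2HG, and 67.6, 62.1 and 75.8 under L-2HG. All treated libraries were below the controls, and the change was -0.92 ± 0.22 with D-2HG (edgeR adjusted p = 0.0106) and -0.89 ± 0.23 with L-2HG (edgeR adjusted p = 0.0187).

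Ndufab1, the acyl carrier protein (chr7:122085403-122101886, minus strand), had the smallest change of this role with D-2HG. It had 139, 99.6 and 129 CPM in the controls, 116, 88.5 and 94.6 under D-2HG, and 106, 89.3 and 85.6 under L-2HG. The groups overlapped, and the changes of -0.30 ± 0.20 and -0.38 ± 0.21 did not pass the test (edgeR adjusted p = 0.272 and 0.185). The other members that did not pass with D-2HG were Ndufa2, Ndufv3 and Ndufa6, with log2 fold changes of -0.62, -0.62 and -0.53.

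Of the 20 accessory subunits of the membrane arm, 13 fell with D-2HG and 4 fell with L-2HG (Ndufb9, Ndufb8, Ndufb2 and Ndufc1). Their median log2 fold changes were -0.74 and -0.64, and with D-2HG they ran from -0.94 (Ndufb3) to -0.35 (Ndufb10). Ndufb8 (chr19:44548572-44555440, minus strand), widely used as a marker of assembled complex I on protein blots, had 232, 136 and 206 CPM in the controls, 109, 110 and 101 under D-2HG, and 111, 73.8 and 125 under L-2HG. All 6 treated libraries were below the controls. Ndufb8 fell by -0.85 ± 0.22 with D-2HG (edgeR adjusted p = 0.0152) and by -0.86 ± 0.23 with L-2HG (edgeR adjusted p = 0.0203).

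Ndufc2 (chr7:97400003-97407802, plus strand), a small subunit of the membrane arm, had 171, 97.7 and 148 CPM in the controls, 82.6, 80.4 and 61.3 under D-2HG, and 98.5, 56.3 and 105 under L-2HG. The D-2HG libraries were below the controls and the L-2HG libraries overlapped them. The change was -0.89 ± 0.24 with D-2HG (edgeR adjusted p = 0.0170) and -0.63 ± 0.25 with L-2HG (edgeR adjusted p = 0.0721). Ndufb10 (chr17:24722060-24724478, minus strand), with the smallest change of this role with D-2HG, had 99.3, 66.7 and 80.1 CPM in the controls, 72.8, 62.9 and 58.2 under D-2HG, and 64.7, 56.3 and 75.8 under L-2HG. The groups overlapped, and the changes of -0.35 ± 0.21 and -0.30 ± 0.22 did not pass (edgeR adjusted p = 0.222 and 0.313).

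The levels of the 8 assembly factors in the controls ran from 11.8 CPM per kilobase of principal transcript for Ndufaf3, the lowest of the tested members, to 138 for Ndufaf8. Of these, 3 fell with D-2HG (Ndufaf8, Ndufaf5 and Ndufaf1) and Ndufaf8 fell with L-2HG. Ndufaf8, the partner that stabilises Ndufaf5 (chr11:120098928-120100705, plus strand), had 140, 84.4 and 99.0 CPM in the controls, 56.9, 50.3 and 42.6 under D-2HG, and 57.2, 35.0 and 62.2 under L-2HG. Every treated library was below the lowest control, without overlap. Its change was -1.11 ± 0.24 with D-2HG (edgeR adjusted p = 0.00576) and -1.01 ± 0.24 with L-2HG (edgeR adjusted p = 0.0155).

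Ndufaf5, the enzyme that hydroxylates an arginine of Ndufs7 during assembly (chr2:140170649-140203689, plus strand), had 30.8, 16.2 and 30.4 CPM in the controls, 14.6, 16.2 and 10.2 under D-2HG, and 19.4, 9.71 and 24.3 under L-2HG. The highest D-2HG library and control replicate 2 were nearly equal, and the L-2HG libraries overlapped the controls. The change was -0.92 ± 0.30 with D-2HG (edgeR adjusted p = 0.0342) and -0.43 ± 0.31 with L-2HG (edgeR adjusted p = 0.318). Ndufaf4, which acts in the assembly of the peripheral arm (chr4:24898083-24905001, plus strand), had 266, 187 and 219 CPM in the controls, 166, 171 and 153 under D-2HG, and 160, 134 and 167 under L-2HG. All treated libraries were below the controls, but the changes of -0.46 ± 0.19 and -0.53 ± 0.19 did not pass (edgeR adjusted p = 0.0839 and 0.0591). Ndufaf2 shares 65.7% of its exon bases with a gene on the opposite strand, and strandedness of the counts is not given in the sources used here.

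Ndufa4, outside the complex (chr6:11900292-11907497, minus strand), had the highest level by length in the controls, 818 CPM per kilobase, above Ndufa1 with 426. It had 581, 415 and 500 CPM in the controls, 366, 360 and 288 under D-2HG, and 412, 299 and 382 under L-2HG. All treated libraries were below the controls, with L-2HG replicate 1 just under control replicate 2. The change was -0.56 ± 0.20 with D-2HG (edgeR adjusted p = 0.0482) and -0.44 ± 0.20 with L-2HG (edgeR adjusted p = 0.114).

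**Figure D2:**
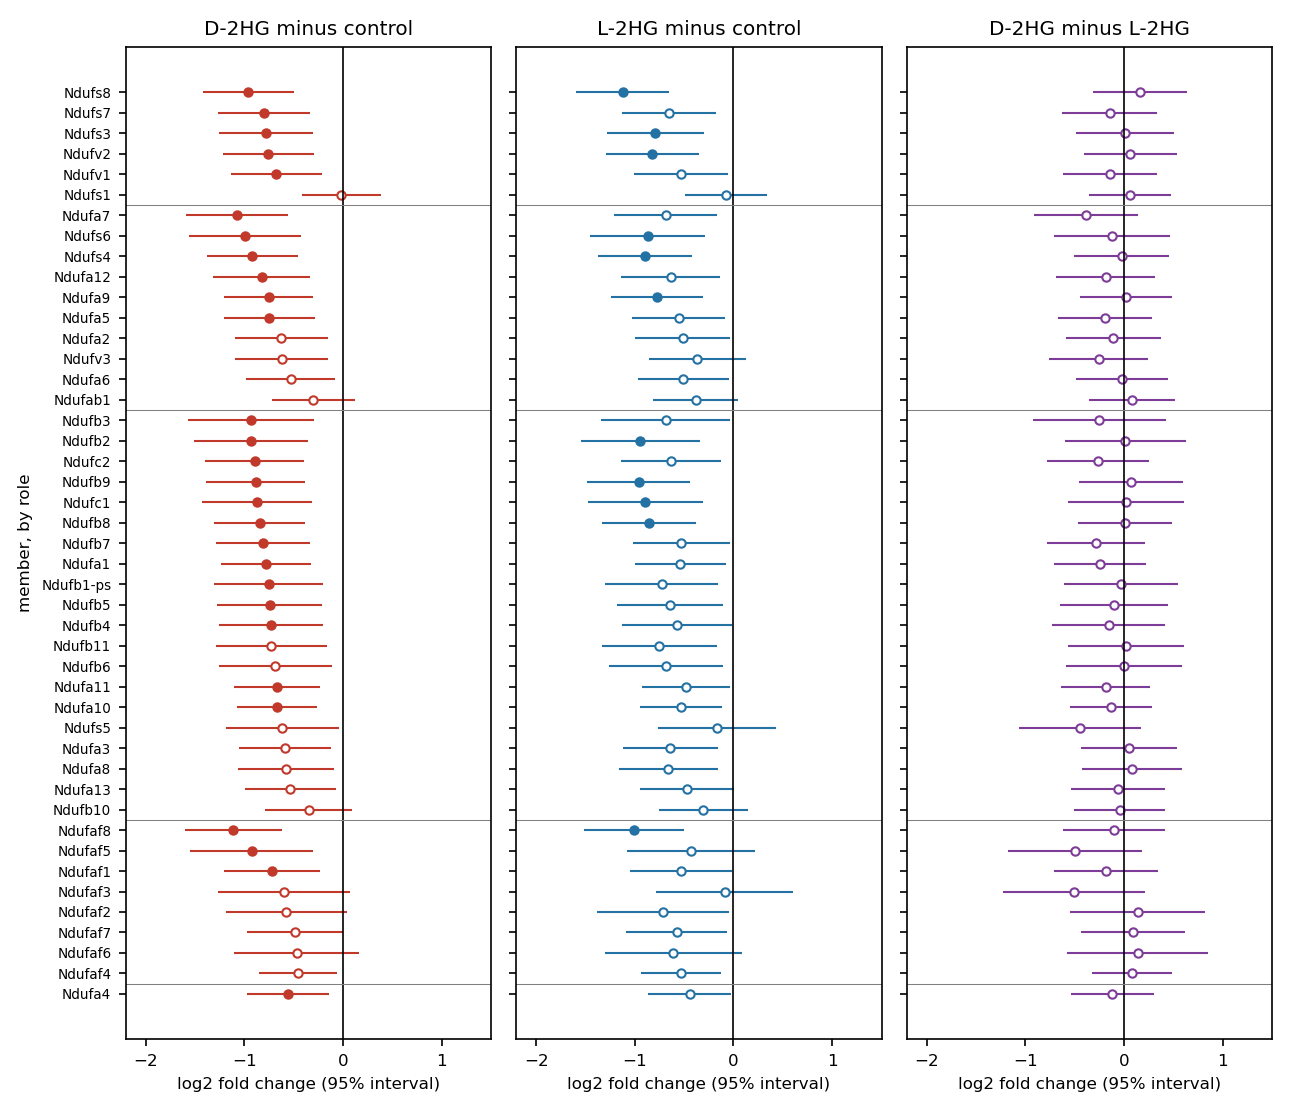
Log2 fold change of the tested members (1 is not drawn) with its 95% interval from edgeR, not adjusted for the number of genes, for each compound against the controls and for the 2 compounds against each other, with filled points for adjusted p under 0.05. The panel of the compounds against each other has no filled point, and Ndufs1 is the core subunit at 0 in all 3 panels.

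The 2 compounds were given at the same dose and for the same time, and differ only as mirror images. The 46 tested members gave 46 comparisons between them. None differed by edgeR, where 0.254% of all tested genes were lower and 0.0489% higher with D-2HG. The smallest edgeR adjusted p over the members was 0.826 (Ndufa7). An unadjusted p under 0.05 was reached by 0 members, beside 713 of all 10235 tested genes. DESeq2 and limma-voom called 0 members as well. Over all genes DESeq2 called 33 lower and 12 higher (of 43755), and limma-voom 138 and 39 (of 10235). The differences, D-2HG minus L-2HG, ran from -0.51 (Ndufaf3) to 0.16 (Ndufs8) on the log2 scale with a median of -0.08. For 43 of 46 members the 95% interval lay within a 2-fold difference in either direction, and the widest bounds were -1.23 (Ndufaf3) and 0.85 (Ndufaf6). For Ndufa7 the difference was -0.39 with an interval from -0.91 to 0.14. For Ndufaf5 it was -0.49 with an interval from -1.17 to 0.19, which includes no difference and also a decrease by more than 2-fold. The larger number of members past the threshold with D-2HG than with L-2HG is therefore not a difference between the compounds that these tests show.

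Control replicate 2 was lower than the other controls in most members. The members' median in control replicate 2 was -0.63 (log2) against control replicates 1 and 3, lower in 43 of 46 members, while the median over all tested genes was 0.01 and 49.4% were lower. The mean log2 CPM over the 46 members was 7.05, 6.36 and 6.80 in the controls, 6.15, 6.10 and 5.95 under D-2HG, and 6.26, 5.67 and 6.30 under L-2HG. All treated libraries lay below all controls, with L-2HG replicate 3 nearest to control replicate 2. Set against control replicate 2 alone, the members' medians were -0.19, -0.26 and -0.38 in the D-2HG libraries, with 38, 41 and 45 members lower. In the L-2HG libraries they were -0.02, -0.64 and -0.04, with 24, 46 and 26 members lower.

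Other measures also differed among the libraries, in part in the order of the members' level and in part not. Total counts ran from 562627 (L-2HG replicate 2) to 5731885 (control replicate 3). Gm10800 and Gm10801, genes that overlap satellite repeats, took 1.43, 5.35 and 0.910% of counts in the controls, 6.83, 3.79 and 17.0% under D-2HG, and 6.71, 24.4 and 7.98% under L-2HG. Control replicates 3 and 1, with the lowest shares, had the highest mean levels of the members (6.80 and 7.05). D-2HG replicate 3 and L-2HG replicate 2, with the highest shares, had the lowest mean levels (5.95 and 5.67). Control replicate 2 had the highest share of the controls, above D-2HG replicate 2, in which the members' median was -0.26 against control replicate 2. Sensory receptor genes, typical of sensory neurons, summed to 185 to 743 CPM in the controls, 676 to 1036 with D-2HG and 1139 to 2961 with L-2HG. The highest sum was in L-2HG replicate 3, where the members' mean level of 6.30 was the highest of its group. Mitochondrial transcripts took 2.23 to 3.06% of counts in the controls, 0.992 to 1.87% with D-2HG and 1.19 to 1.83% with L-2HG. In a fit with the satellite share as a covariate no member passed with either compound, and the medians were -0.30 and -0.08. In that fit few genes of any kind passed, with 0.586% of all tested genes lower with D-2HG and 0.0489% with L-2HG, so its count of members cannot be read as a result about the members. With background reads subtracted, estimated from the sensory receptor genes by exon length, 18 members were lower with D-2HG and 3 with L-2HG, beside 6.20 and 2.33% of all genes. The part of the mitochondrial share was not tested.

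The 6 markers of CD8 T cells summed to 2870 to 4728 CPM in the controls, 2380 to 2740 with D-2HG and 2154 to 3142 with L-2HG. The 5 B cell markers summed to 172 to 312, 131 to 132 and 132 to 191 CPM. Markers of CD4 T cells, NK cells, macrophages and monocytes, dendritic cells, neutrophils and erythroid cells each summed to under 20 CPM in every library.

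**Figure D3:**
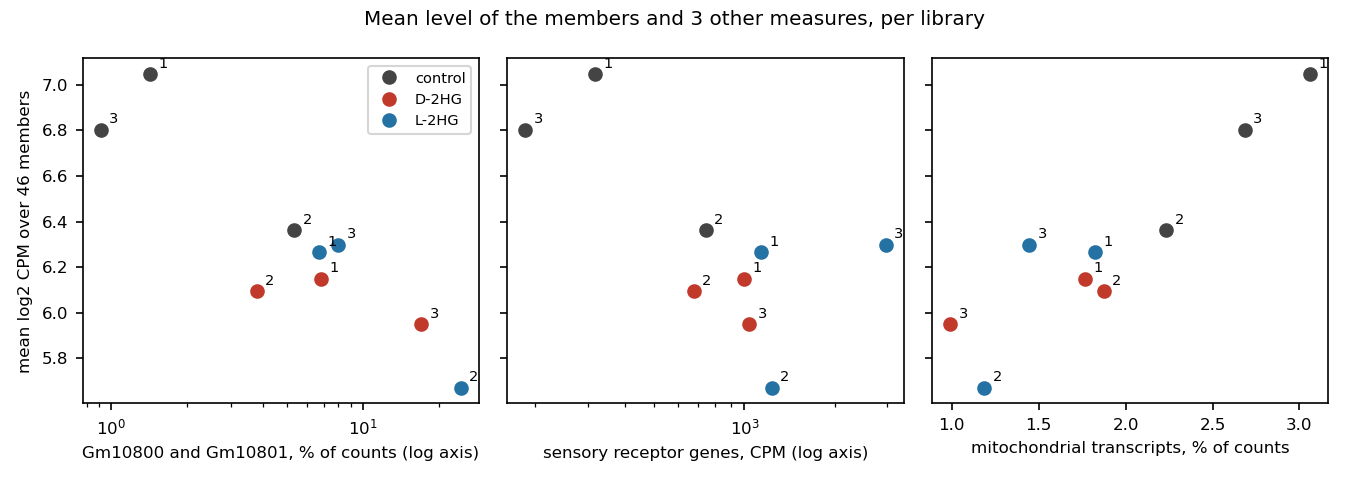
Mean log2 CPM over the 46 tested members (vertical axis) in each library against the share of counts in Gm10800 and Gm10801, the summed CPM of sensory receptor genes (both on log axes) and the share of counts in mitochondrial transcripts, with replicate numbers beside the points. Apart from L-2HG replicate 2 (5.67), the treated libraries lie nearer to control replicate 2 (6.36) than control replicates 1 and 3 do (7.05 and 6.80).

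The count of lower members depended on single libraries. With D-2HG, 40 members were lower without control replicate 2, but 1 was without control replicate 1 and 3 were without control replicate 3. The share of all tested genes that were lower moved in the same order, at 19.7, 1.74 and 1.94%. Leaving out D-2HG replicate 1, 2 or 3 gave 9, 8 or 5 members, beside 2.97, 3.78 and 2.37% of all genes. Ndufaf8 was the only member called lower with D-2HG in all 9 fits that left out 1 library. With L-2HG, 38 members were lower without control replicate 2, 1 without control replicate 1 and 0 without control replicate 3, beside 18.7, 0.631 and 0.325% of all genes. Leaving out L-2HG replicate 1, 2 or 3 gave 2, 3 or 20, beside 1.31, 2.64 and 11.1% of all genes, and no member was called in all 9 fits. In every fit that left out 1 library at least 45 of 46 members stayed below 0 with each compound.

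**Figure D4:**
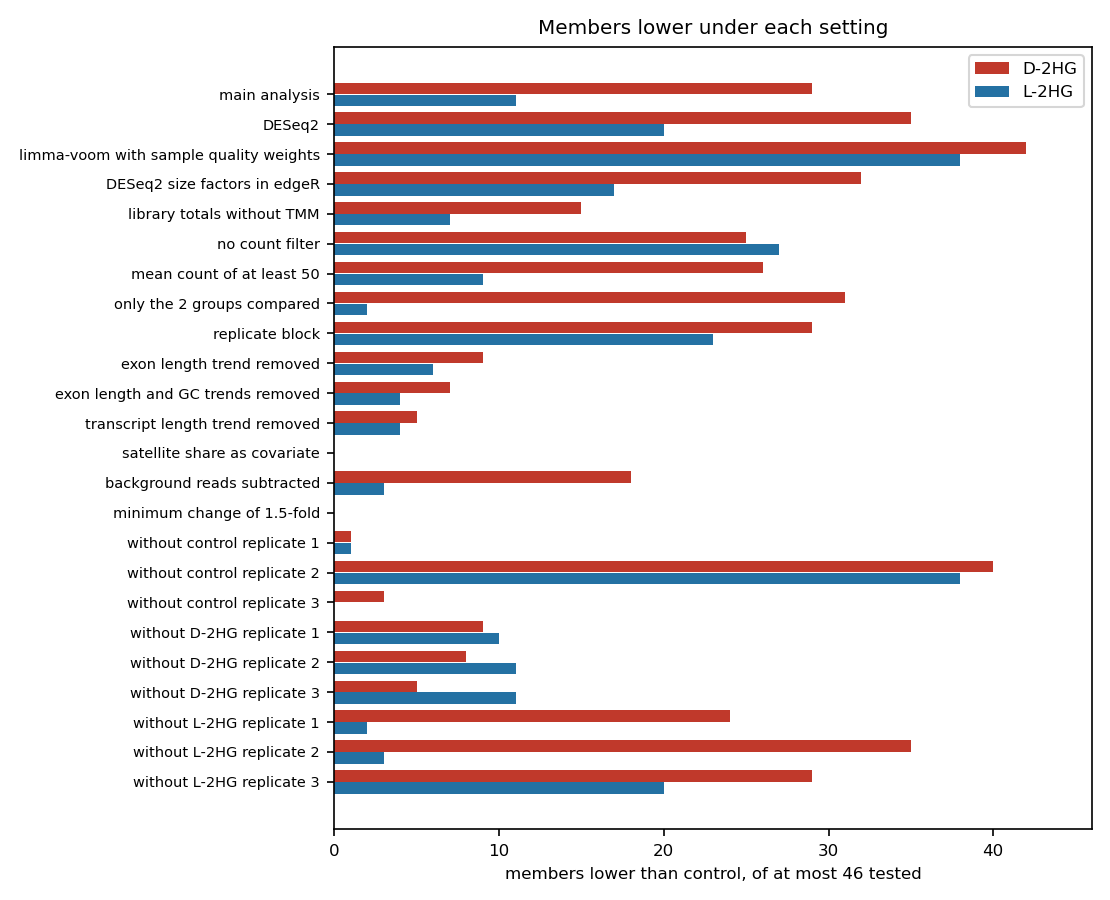
Bars give the number of members lower than control at an adjusted p under 0.05 with D-2HG and with L-2HG under each setting of the analysis, out of at most 46 tested. The counts run from 0 to 42 with D-2HG and from 0 to 38 with L-2HG.

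Most members are short genes, and short transcripts as a class were lower. The principal transcripts of the tested members had a median length of 977 bases (from 419 to 4371), beside 2929 bases over all tested genes. The tested genes were divided by length into 5 classes of equal size, and 36 of the 46 members were in the shortest class (37 to 1611 bases). The median log2 fold change of all genes in that class was -0.51 with D-2HG, with 26.4% lower, and -0.45 with L-2HG, with 18.3% lower. The 36 members there had medians of -0.74 and -0.64, with 23 and 8 lower. The count of 8 of 36 with L-2HG is near the share of all genes in that class. In the longest class the medians over all genes were 0.52 and 0.58. Control replicate 2 showed the same order against control replicates 1 and 3, with -0.51 in the shortest class and 0.38 in the longest.

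Across all tested genes, log2 fold change and transcript length had a Spearman rho of 0.55 with D-2HG and 0.53 with L-2HG, and across the 46 members of 0.17 and 0.06. These are descriptions across genes, which are not independent replicates and share the same libraries. Against a trend fitted to all genes by transcript length, the members lay lower by a median of -0.28 with D-2HG (43 of 46 below) and -0.22 with L-2HG (42 of 46). Against the trend by total exon length the medians were -0.39 (44 of 46) and -0.31 (43 of 46).

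With the transcript length trend removed from the counts, 5 members passed with D-2HG (Ndufa7, Ndufaf4, Ndufaf8, Ndufb2 and Ndufs4) and 4 with L-2HG (Ndufaf4, Ndufaf8, Ndufb2 and Ndufs8). In the same fits 7.13 and 5.46% of all genes were lower. Ndufaf4 and Ndufb2 have principal transcripts of 3632 and 4371 bases, and differed from the trend for genes of that length by -0.74 and -1.34 (log2) with D-2HG. The length used for Ndufb2 is that of its longest principal isoform, and its distance from the trend and its call after removal of the trend rest on that length. Ndufs1 differed from the transcript length trend by 0.03. By total exon length Ndufs1 was in the longest of 5 classes, where all tested genes had medians of 0.49 with D-2HG and 0.55 with L-2HG. Its own changes were -0.02 and -0.08.

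**Figure D5:**
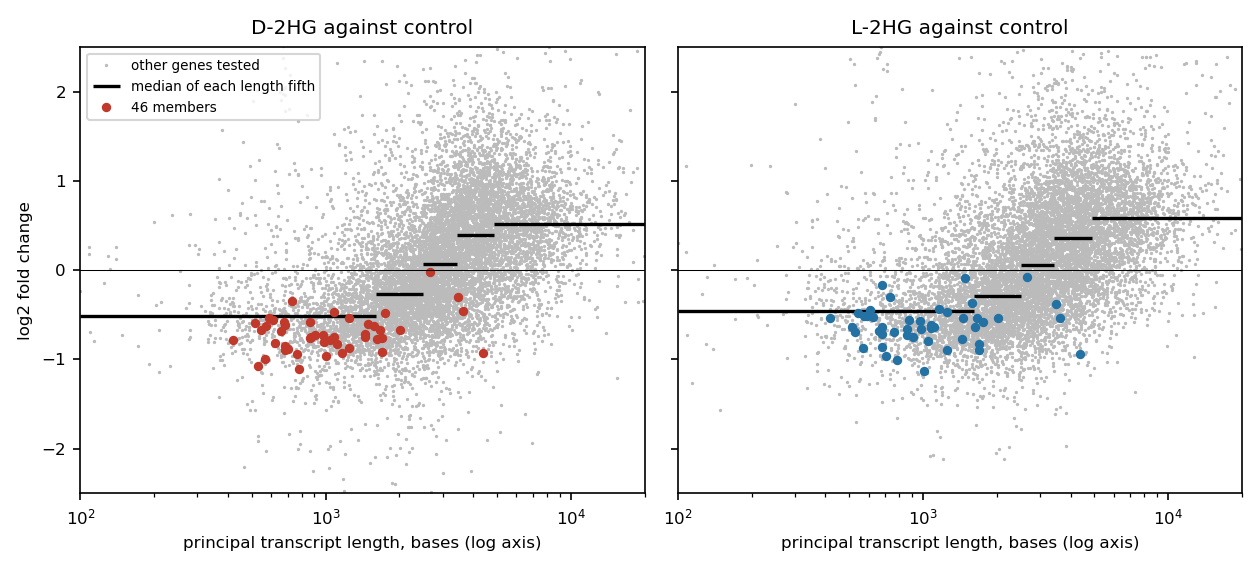
Log2 fold change against the length of the principal transcript (log axis) for D-2HG and L-2HG against control, with the 46 tested members in colour, other tested genes in grey, and a bar at the median of each of the 5 length classes; genes beyond the axes are not drawn. Most members lie at or under the bar of the shortest class, at -0.51 with D-2HG and -0.45 with L-2HG.

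Other nuclear genes for mitochondrial proteins were lower as well, and whether they differ from the Nduf genes was not tested. Of 36 tested nuclear genes of complexes III, IV and V, 20 were lower with D-2HG and 13 with L-2HG, with medians of -0.67 and -0.63. Of 77 tested mitochondrial ribosomal proteins, 35 were lower with D-2HG and 26 with L-2HG, with medians of -0.63 and -0.60. The shares of all tested genes that were lower were 10.5 and 8.38%. Against the transcript length trend, the medians with D-2HG were -0.24 for complexes III to V and -0.31 for the ribosomal proteins, beside -0.28 for the Nduf genes. Control replicate 2 was lower in both groups too, by medians of -0.62 and -0.63.

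The subunits of complex I encoded by mitochondrial DNA, which form the proton-pumping core, were given by 6 tested genes. Of these, 3 fell with both compounds (mt-Nd2, mt-Nd4 and mt-Nd1), beside 10.5 and 8.38% of all tested genes. mt-Nd2 had 724 ± 212 CPM in the controls (SD, n = 3), 291 ± 63.3 with D-2HG and 352 ± 109 with L-2HG. Its changes on the log2 scale were -1.31 (edgeR adjusted p = 0.00312) and -1.03 (0.0155). mt-Nd4 had 1482 ± 429, 684 ± 77.1 and 596 ± 43.2 CPM, with changes of -1.12 and -1.32 (edgeR adjusted p = 0.00357 and 0.00283). mt-Nd6, the gene of this set on the other strand of the mitochondrial genome, had 114 ± 4.14, 122 ± 14.9 and 98.9 ± 35.2 CPM and did not pass (edgeR adjusted p = 0.783 and 0.454).

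Of 11 complex I assembly factors under other names, 4 fell with D-2HG (Nubpl, Tmem70, Dmac1 and Dmac2) and 3 with L-2HG (Tmem186, Tmem70 and Aifm1). Among all tested genes, 10.5 and 8.38% were lower. Nubpl, which delivers iron-sulfur clusters to complex I, had 13.7 ± 2.0 CPM in the controls (SD, n = 3), 4.37 ± 0.894 with D-2HG and 6.45 ± 2.75 with L-2HG. Its log2 fold change was -1.63 with D-2HG (edgeR adjusted p = 0.00597) and -0.97 with L-2HG (edgeR adjusted p = 0.0641). Tmem70, which acts in the assembly of complex I and of ATP synthase, had 149 ± 27.1, 93.2 ± 5.85 and 92.5 ± 12.6 CPM, and changes of -0.68 and -0.68 (edgeR adjusted p = 0.0227 and 0.0317).

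The iron-sulfur clusters of complex I come from a separate assembly pathway. Of its 15 tested genes, 2 fell with D-2HG (Bola3 and Nfu1) and 2 with L-2HG (Isca2 and Bola3), a share near the 10.5 and 8.38% of all tested genes. Bola3, which acts late in cluster delivery, had 57.7 ± 18.9 CPM in the controls (SD, n = 3), 26.3 ± 0.341 with D-2HG and 30.2 ± 9.89 with L-2HG, changes of -1.14 and -0.85 (edgeR adjusted p = 0.00730 and 0.0357). Nfu1, a carrier of finished clusters, changed by -1.03 with D-2HG (edgeR adjusted p = 0.0156).

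Ubiquinone is the electron acceptor of complex I. Of 13 tested genes of its synthesis, 5 fell with D-2HG (Coq7, Coq3, Pdss1, Coq4 and Coq5) and 1 with L-2HG (Coq7). Among all tested genes, 10.5% were lower with D-2HG and 8.38% with L-2HG, so the count with L-2HG is near that share. Coq7, a hydroxylase late in the pathway, had 41.9 ± 9.03 CPM in the controls (SD, n = 3), 15.5 ± 1.21 with D-2HG and 15.4 ± 5.37 with L-2HG, changes of -1.44 and -1.39 (edgeR adjusted p = 0.00208 and 0.00847). Coq3, a methyltransferase of the pathway, changed by -1.25 with D-2HG (edgeR adjusted p = 0.00909). Of 10 tested genes of other enzymes that reduce ubiquinone, 4 fell with D-2HG (Sdhc, Sdhb, Prodh and Etfb) and 4 with L-2HG (Sdhc, Prodh, Sdhb and Etfa). Sdhc, a membrane subunit of complex II, had 61.3 ± 20.3, 24.5 ± 3.88 and 24.8 ± 10.1 CPM, changes of -1.33 and -1.19 (edgeR adjusted p = 0.00495 and 0.0152). Sdhb, its iron-sulfur subunit, changed by -0.89 and -0.80 (edgeR adjusted p = 0.0128 and 0.0255).

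Of 12 tested transcription regulators of nuclear respiratory genes and mitochondrial transcription, 1 fell with D-2HG (Tfb1m) and 2 rose (Pprc1 and Polrmt), near the shares of all tested genes (10.5% lower and 11.8% higher). By limma-voom 2 were lower and 7 higher with D-2HG, where 2641 of all 10235 tested genes were lower and 2976 higher. With L-2HG none of the 12 passed by edgeR or DESeq2. An unadjusted p under 0.05 by edgeR was reached by 4 of them, and by 3771 of all 10235 tested genes. With L-2HG limma-voom called 2 of the 12 lower and 5 higher, beside 2341 and 2840 of all tested genes. The log2 fold changes of the 12 regulators with L-2HG ran from -0.80 (Tfb1m) to 0.79. Tfb1m, a methyltransferase of mitochondrial ribosomal RNA, changed by -1.10 (edgeR adjusted p = 0.0317). Pprc1, a coactivator of the PGC-1 family, had 139 ± 45.6 CPM in the controls (SD, n = 3) and 237 ± 27.9 with D-2HG, a change of 0.77 (edgeR adjusted p = 0.0380). The median transcript length of the regulators was 3706 bases, and all tested genes of the length class that holds it had a median change of 0.40 with D-2HG. Nrf1, Yy1 and Gabpa, whose core letters were searched above, did not pass the test. Nrf1 had log2 fold changes of 0.30 with D-2HG (edgeR adjusted p = 0.249) and 0.29 with L-2HG (0.297). Yy1 had 0.35 (edgeR adjusted p = 0.245) and 0.63 (0.0621), in the same order. Gabpa had 0.66 (edgeR adjusted p = 0.0671) and 0.26 (0.499).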

How the data were processed

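Polyadenylated RNA was primed with oligo(dT), amplified by PCR and fragmented with a transposase (Nextera XT), per the labels' protocols. The authors deposited whole-number counts per gene, made with STAR 2.7.3a and featureCounts on mm10, per the submitters' processing notes. Annotation release, strand and settings are not given in the sources used here. A second deposited table holds signal values, the same counts divided by a size factor for each library (within 5.83e-05 of whole counts). They gave identifiers and gene types and entered no test.

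Of 55011 genes, 10235 passed filterByExpr (minimum count of 10). edgeR 4.0.16 (R 4.3.3) with TMM scaling fitted 1 mean per group to all 9 libraries. The quasi-likelihood F test was adjusted by Benjamini-Hochberg over all tested genes, and the threshold was 0.05. Positions and lengths came from GENCODE M21 (GRCm38). A principal transcript is the longest APPRIS principal isoform. Levels by length for Ndufb2 and Ndufab1 may be too low, since theirs are long.

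The members and lists were chosen with earlier results of these data known. Values per library are given for the 7 core subunits, for the 2 members with the smallest p and the one with the highest log2 fold change with D-2HG in each other role, and for the 2 with the smallest p between the compounds. The values of 1 core subunit are not reported here, and it is counted in the totals. Of each pathway list the 2 called genes with the smallest adjusted p with D-2HG are given. The choice of mt-Nd6, Nrf1, Yy1 and Gabpa was made with their values in view.

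Alternatives were DESeq2 1.42.0, limma-voom (limma 3.58.1), other scalings and filters, fits of 2 groups, the replicate number as a block, length and GC trends, the satellite share as a covariate, background reads subtracted, leaving out each library in turn and testing for a change beyond 1.5-fold. The transcript length trend was added after seeing the data. Sensory receptor sums use 1427 of 1503 genes. Promoter letters were searched with Python 3.11.15.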

Additional observations from a re-analysis of the deposited data

How the results depend on the processing

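With every setting run, 0 members were higher with either compound and 0 differed between the compounds. The number of lower members moved by more than 1.5 times with several settings. With the exon length trend removed it was 9 with D-2HG (median log2 fold change -0.38) and 6 with L-2HG (-0.28), beside 8.44 and 6.66% of all genes lower. With exon length and GC trends removed it was 7 (-0.36) and 4 (-0.29), beside 8.47 and 6.37%, and with the transcript length trend removed, added after seeing the data, 5 (-0.28) and 4 (-0.22), beside 7.13 and 5.46%. The satellite share as a covariate left 0 and 0, with medians of -0.30 and -0.082, in a fit where 0.586 and 0.0489% of all genes were lower. Subtracting background reads left 18 and 3 (6.20 and 2.33% of all genes), and testing for a change beyond 1.5-fold left 0 and 0 (0.645 and 0.0977%), a stricter test by construction. For L-2HG the number was also 20 with DESeq2, 38 with limma-voom and sample quality weights, 17 with DESeq2 size factors, 27 without a count filter and 2 in a fit of only the 2 groups. The shares of all genes lower in these fits were 2.18% (of 43755 genes), 22.9%, 9.76%, 3.09% (of 43755 genes) and 1.40%. Apart from the stricter test the cause was not tested. Library totals without TMM gave 15 and 7, beside 4.95 and 3.14% of all genes lower.

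Leaving out each library in turn gave 1 to 40 lower members with D-2HG (medians from -0.93 to -0.56), 0 to 38 with L-2HG (medians from -0.83 to -0.45), and medians from -0.21 to 0.07 between the compounds. The replicate number as a block gave 29 with D-2HG and 23 with L-2HG, beside 10.1 and 10.5% of all genes lower. The numbers share no stated origin, and deviations of same-numbered libraries did not correlate above 0.1 in every pair (from -0.17 to 0.28), so they were not taken as pairs. Depth limits the members of low level, such as Ndufaf3 and Ndufs5 (17.5 and 21.2 CPM in the controls), and L-2HG replicate 2 has only 562627 counts. Expected background reads reached 12.8% of the counts of a tested member in a library (Ndufaf2), with a median over members of 1.00%.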
